A study of Mus musculus with 20 samples.

Results

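Toll-like receptor messenger RNAs were compared among mouse dendritic cell progenitors, the dendritic cells made from them, and progenitors given TGF-β1. Members were taken by gene symbol, as all probe sets that the platform annotation pairs with Tlr1, Tlr2, Tlr3, Tlr4, Tlr5, Tlr6, Tlr7, Tlr8, Tlr9 or Tlr13 and with no other gene. This gave 16 of 45037 probe sets and 10 of 18193 genes. Tlr4 had 4 probe sets, Tlr7 had 3, Tlr3 had 2 and each other gene had 1. The main probe set of a gene is the one with the highest mean over the 20 arrays.

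Toll-like receptors bind molecules of microbes and start inflammatory and interferon responses through the adaptors MyD88 and TRIF. TLR1, TLR2, TLR4, TLR5 and TLR6 sit at the cell surface and sense lipoproteins, lipopolysaccharide or flagellin, while TLR3, TLR7, TLR8, TLR9 and TLR13 sit in endosomes and sense nucleic acids. Dendritic cell subsets are known for different receptor sets, with TLR7 and TLR9 typical of plasmacytoid cells and TLR3 of the cross-presenting kind of conventional cells.

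The arrays covered 10 groups of 2 arrays, all of bone marrow origin from C57BL/6 mice. Multipotent progenitors (MPP) and common dendritic cell progenitors (CDP) had been amplified from marrow, conventional (cDC) and plasmacytoid (pDC) dendritic cells had been differentiated from amplified progenitors, and in vivo CDP had been isolated from marrow. A second series held amplified CDP that were untreated (0 h) or had received TGF-β1 for 4, 8, 12 or 24 h, with no untreated arrays at the later hours, so that TGF-β1 and hours in culture cannot be told apart. The labels name no transgene or mutation, nothing in them says that replicates came from separate mice or cultures, and p-values therefore measure only the spread between these arrays.

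Values are log2 probe set intensities. The MPP, CDP, cDC, pDC and in vivo CDP arrays shared a lowest value of 2.25, held by 33.7% to 35.5% of their probe sets, and their medians were 2.46 to 2.52. The TGF-β1 arrays had no shared lowest value and medians of 5.29 to 5.36, so levels were not compared between these 2 parts. A probe set was tested where it exceeded 5 on at least 2 arrays of a fit, and a difference was called at an adjusted p under 0.05 in limma. Where both arrays of the lower group lay under 5, the fold was taken against 5 and is written as "at least", while the p beside it tests the full difference. The 9 conventional dendritic cell markers examined all exceeded 5 on both cDC arrays, and all 8 plasmacytoid markers did so on both pDC arrays. On the cDC arrays 6 of these 8 also exceeded 5, with means of 7.78 to 8.14 against 12.76 to 13.06 in pDC, and on the pDC arrays 4 of the 9 conventional markers did, with means of 6.18 to 6.21 against 10.40 to 10.73 in cDC. On replicate 1 at 4, 12 and 24 h the 3′ Gapdh control probe set exceeded the 5′ one by 2.09 to 2.78, against 0.01 to 0.10 on the other 7 TGF-β1 arrays. This difference was 0.98 and 0.47 in in vivo CDP and -0.21 to 0.30 on the one-cycle arrays, and that of actin was 1.91 and 2.04 for MPP, 1.23 and 2.11 for CDP, and 0.69 to 0.94 for cDC and pDC. The part of RNA quality in the receptor values was not tested, apart from the fits without the 3 arrays.

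Promoter letters are shown first for the members whose levels moved most between groups or under TGF-β1, since factors of dendritic cell development can bind before the start site. Binding was not measured here. RefSeq windows of the 250 bases before an annotated start site (build GRCm38.p6) were matched for 8 of the 10 genes, with 10 windows in all, and Tlr4 and Tlr7 are named only. Capitals mark a match to a core motif found by a search of both strands, 5′ to 3′ on the gene's strand.
Tlr1, chr5:64933564-64933593, minus strand, PU.1 core: aattaaatgttgGAGGAAgtaggagcttga
Tlr2, chr3:83841762-83841791, minus strand, NF-kappaB core: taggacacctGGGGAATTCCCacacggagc
Tlr2, chr3:83841672-83841701, minus strand, SMAD box: tccgttccccttgCAGACccctgtgggcgg
Tlr3, chr8:45410572-45410601, minus strand, NF-kappaB core: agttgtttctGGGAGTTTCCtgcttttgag
Tlr3, chr8:45410384-45410413, minus strand, NF-kappaB core: ttccccacacGGCCGGTCCCtgttggcccc
Tlr13, chrX:106143025-106143274, plus strand, PU.1 core: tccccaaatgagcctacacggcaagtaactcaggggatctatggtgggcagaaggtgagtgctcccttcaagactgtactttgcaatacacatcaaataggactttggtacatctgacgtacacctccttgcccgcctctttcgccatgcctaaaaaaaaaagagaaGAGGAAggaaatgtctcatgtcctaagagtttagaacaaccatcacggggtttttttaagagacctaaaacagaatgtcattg

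The PU.1 core (GAGGAA) lay 23 bases before the start site of Tlr1 and 83 bases before that of Tlr13. It also occurred in the windows of Tlr8 and Tlr9, and in 23.2% of all 32851 windows of the same length. In Tlr2 a pair of overlapping NF-kappaB cores (GGG, any 5 bases, then CC) began 173 and 172 bases before the start site, and a SMAD box (CAGAC) 80 bases before it. In Tlr3 the NF-kappaB core occurred 211 and 23 bases before the start site, and in Tlr5 and Tlr6 there was 1 match each. SMAD boxes also occurred in windows of Tlr1, Tlr5, Tlr6 and Tlr9. NF-kappaB cores occurred in 45.8% of all windows and SMAD boxes in 42.2%. The interferon-stimulated response element core (GAAA, any 2 bases, then GAAA; 2.98% of windows) was found only in the second of the 2 Tlr6 windows, as 2 overlapping matches, and the AP-1 core (TGANTCA, 6.75%) only in Tlr9. The ETS-IRF composite core (GGAA, any 2 bases, then GAAA; 2.30%), whose first letters can overlap a PU.1 core, had no match in the 10 windows. These matches describe letters and are neither shown binding sites nor causes of a level.

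Among the 5 cell groups the receptors divided sharply. Tlr3 was high in cDC and at or near the lowest value elsewhere, Tlr7 was highest in pDC, Tlr1 and Tlr13 had their highest mean in cDC, and Tlr2 and Tlr4 were present in MPP, amplified CDP and cDC and lower in pDC and in vivo CDP. Tlr5 lay at the lowest value on all 10 arrays and Tlr8 on 9 of them, with 2.29 on the other, and Tlr6 and Tlr9 stayed under 5 on all 10. A total of 10 member probe sets, of 6 genes, entered the tests of these groups: Tlr1, Tlr2, both of Tlr3, 2 of Tlr4, all 3 of Tlr7, and Tlr13. Members that passed this filter only through the group where they are high had to differ, so the counts below describe and do not support.

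**Figure D1:**
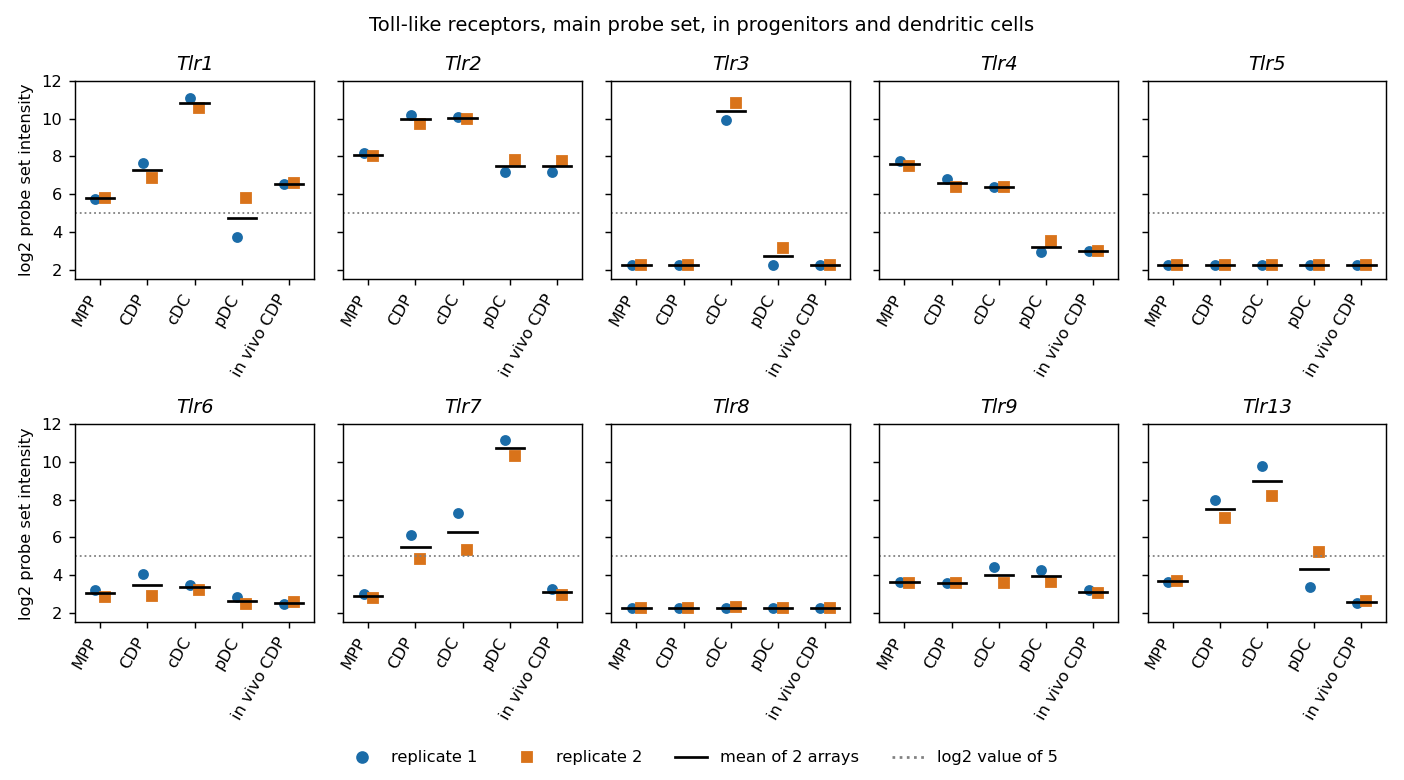
Log2 intensity of the main probe set of each Toll-like receptor (vertical axis) on the 2 arrays of each cell group (horizontal axis), with the group mean as a bar and the level of 5 dotted. Tlr3 exceeds 5 only in cDC (9.95 and 10.83), Tlr7 reaches 11.15 and 10.33 in pDC, and Tlr5 and Tlr8 stay at 2.25 to 2.29.

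From MPP to CDP 2 of 10 tested member probe sets were higher and none was lower, with 5 at an unadjusted p under 0.05, while 4.92% of all 17501 probe sets tested were called (2.81% higher and 2.11% lower). From CDP to cDC 3 of 10 were higher and none lower, against 40.2% called overall (16.6% higher and 23.7% lower). From CDP to pDC 3 were higher and 5 lower, against 48.2% called overall (21.9% higher and 26.4% lower). Between cDC and pDC all 10 were called, 7 of them higher in cDC and 3 higher in pDC, against 20.8% overall (9.79% and 11.0%). In vivo CDP differed from amplified CDP in 5 of 10, all lower, against 42.8% overall (23.1% higher and 19.7% lower). Several of these probe sets read the same gene, and the calls were of 2, 2, 5, 6 and 4 of the 6 genes tested, in turn. The 3 called higher in pDC were all of Tlr7. The median difference over the tested member probe sets was 0.09, 0.61, -1.0, 3.53 and -1.56 in these 5 comparisons in turn, beside 0.02, -0.10, -0.04, -0.03 and 0.03 over all probe sets tested. The comparisons of cDC, pDC and in vivo CDP with CDP share the CDP arrays, so that their values are side by side and not independent. In bulk RNA, fewer cells that express a receptor and less RNA per cell cannot be told apart.

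**Figure D2:**
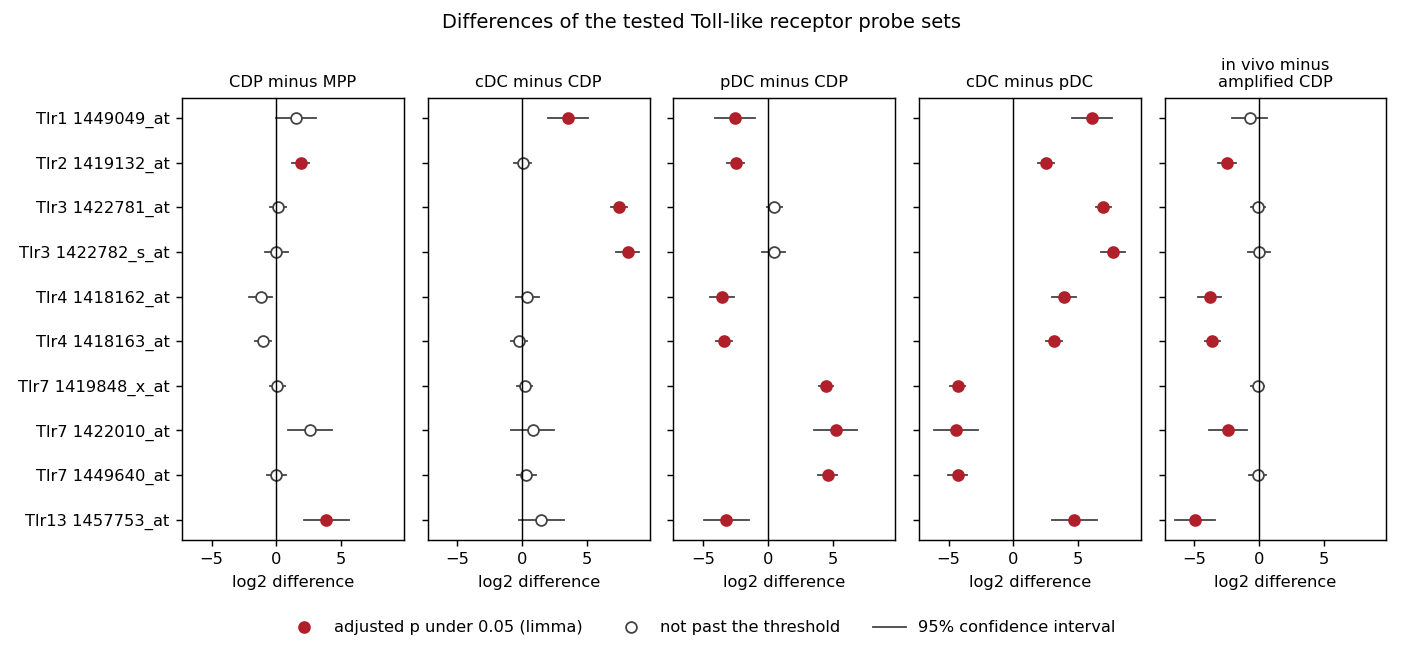
Log2 difference (horizontal axis) of the 10 tested Toll-like receptor probe sets (rows) in 5 comparisons (panels), with the 95% confidence interval and filled points where the limma adjusted p was under 0.05. All 10 points are filled in the comparison of cDC with pDC, with 7 to the right of 0 and the 3 of Tlr7 to the left.

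Among the surface receptors, Tlr2 encodes the common chain of the lipoprotein receptors, which pairs with TLR1 or TLR6. It was read by probe set 1419132_at and measured 8.20 and 8.01 on the MPP arrays, 10.19 and 9.74 on those of CDP, 10.07 and 9.96 for cDC, 7.19 and 7.82 for pDC and 7.19 and 7.78 for in vivo CDP. CDP and cDC were thus high and overlapped, and the pDC and in vivo CDP arrays overlapped at a lower level, below both MPP arrays. Tlr2 was 3.62-fold higher in CDP than in MPP, a log2 difference of 1.86 ± 0.27 (limma SE, adjusted p = 0.0128). That call was lost when either MPP array or CDP replicate 1 was left out (adjusted p of 0.0752 to 0.107) and without the low-value filter (0.101). Tlr2 did not differ detectably between cDC and CDP, with a difference of 0.06 and a 95% interval of -0.59 to 0.71. It was lower in pDC than in CDP by a log2 difference of -2.46 ± 0.27, or 5.49-fold (adjusted p = 0.000705), and higher in cDC than in pDC by 2.51 ± 0.27 (adjusted p = 0.00121). In in vivo CDP it was 5.56-fold lower than in amplified CDP, a difference of -2.48 ± 0.29 (adjusted p = 0.000613).

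Tlr1 encodes the chain that with TLR2 binds triacylated lipopeptides. Its probe set 1449049_at measured 5.77 and 5.80 on the MPP arrays, 7.68 and 6.88 on those of CDP, 11.11 and 10.58 for cDC, 3.72 and 5.79 for pDC and 6.53 and 6.58 for in vivo CDP. The cDC arrays lay above all others, and pDC replicate 2 fell between the MPP arrays while pDC replicate 1 was lowest. Tlr1 was 11.8-fold higher in cDC than in CDP, a log2 difference of 3.57 ± 0.65 (limma adjusted p = 0.00635), with no call in the fit without a low-value filter (0.0709). It was lower in pDC than in CDP by -2.52 ± 0.65 (adjusted p = 0.0178), and this call was lost without CDP replicate 1 (0.0900) and without the filter (0.134). Between cDC and pDC the difference was 6.09 ± 0.65 (adjusted p = 0.00112). Without pDC replicate 1 these differences were -1.49 and 5.05, and without pDC replicate 2 they were -3.56 and 7.13. The 1.49 between CDP and MPP had an adjusted p of 0.308, and in vivo CDP and CDP differed by -0.72 with an interval of -2.10 to 0.65.

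Tlr6, the partner of TLR2 for diacylated lipopeptides, ranged from 2.46 to 4.06 on the 10 arrays and was not tested. RefSeq places it beside Tlr1 on chromosome 5, with no other protein-coding gene between them. Its highest value was on CDP replicate 1, and no group stood apart from the others as the cDC arrays did for Tlr1. Tlr5, the flagellin receptor, was at 2.25 on all 10 arrays, the value that marks the floor of this processing, so it has neither a level nor a fold here.

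Tlr4 encodes the lipopolysaccharide receptor. Its main probe set, 1418163_at, measured 7.75 and 7.49 on the MPP arrays, 6.80 and 6.38 on those of CDP, 6.36 and 6.36 for cDC, 2.94 and 3.51 for pDC and 2.99 and 2.99 for in vivo CDP. The second tested probe set, 1418162_at, gave 7.48 and 7.71, then 6.50 and 6.25, 6.87 and 6.69, 2.25 and 3.45, and 2.88 and 2.25 in the same order. Both therefore ranked MPP first, CDP and cDC next, and pDC with in vivo CDP last, below 5. The main probe set was at least 3.0-fold lower in pDC than in CDP, a full log2 difference of -3.36 ± 0.26 (limma adjusted p = 0.000204), and at least 3.0-fold lower in in vivo CDP, with -3.60 ± 0.24 (adjusted p = 6.63e-05). The second probe set differed by -3.52 and -3.80 in these comparisons (adjusted p = 0.000639 and 0.000312). Tlr4 was at least 2.56-fold higher in cDC than in pDC (3.13 ± 0.26, adjusted p = 0.000429), and the second probe set differed by 3.93 (adjusted p = 0.000772). Without pDC replicate 1 the second probe set differed by -2.92 in pDC against CDP and 3.33 in cDC against pDC, and without replicate 2 by -4.12 and 4.52, all still called. cDC and CDP differed by -0.23 with an interval of -0.85 to 0.39. The values of CDP against MPP were -1.03 and -1.22, at adjusted p of 0.0889 and 0.158, and both probe sets passed the threshold when values under 5 were raised to 5 before the fit (0.0349 and 0.0133). The other 2 Tlr4 probe sets were under 5 on all 20 arrays.

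Among the endosomal receptors, Tlr3 encodes the sensor of double-stranded RNA, which signals through TRIF. Its main probe set, 1422782_s_at, measured 9.95 and 10.83 in cDC, 2.25 and 3.17 in pDC, and 2.25 on each array of MPP, CDP and in vivo CDP. The second, 1422781_at, measured 9.60 and 10.27 in cDC and 2.32 to 3.12 on the other 8 arrays. Only the 2 cDC arrays were above 5, with a gap of more than 6 log2 units to the next. Tlr3 was at least 41.9-fold higher in cDC than in CDP by the main probe set and at least 30.6-fold by the second, with full differences of 8.14 ± 0.38 and 7.47 ± 0.25 (limma adjusted p = 7.44e-05 and 2.59e-05). The bounds against pDC were the same, since both lower groups lay under 5, and the full differences were 7.68 and 6.95 (adjusted p = 6.20e-05 and 2.27e-05). The probe sets entered the test through the cDC arrays alone, and with either cDC array left out neither was tested. Against CDP, the Tlr3 differences in MPP, pDC and in vivo CDP were 0.52 or less in size, none was called, and all these arrays lay under 5.

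Tlr7 encodes a sensor of single-stranded RNA. Its main probe set, 1422010_at, measured 3.02 and 2.77 on the MPP arrays, 6.13 and 4.85 on those of CDP, 7.29 and 5.33 for cDC, 11.15 and 10.33 for pDC and 3.26 and 2.93 for in vivo CDP. The pDC arrays stood above all others, CDP and cDC overlapped in the middle with a wide spread, and MPP and in vivo CDP overlapped at the bottom. The other 2 probe sets of Tlr7, 1419848_x_at and 1449640_at, gave 7.17 and 6.68, and 7.49 and 6.84, in pDC and 2.29 to 3.21 elsewhere. Tlr7 was 38.0-fold higher in pDC than in CDP, a log2 difference of 5.25 ± 0.70 (limma adjusted p = 0.00142), and the other probe sets were at least 3.80-fold and 4.48-fold higher. Without CDP replicate 1 the main probe set gave 59.2-fold, and without CDP replicate 2 24.4-fold. Between cDC and pDC the main probe set differed by -4.43 ± 0.70 (adjusted p = 0.00563), with no call in the fit without a low-value filter (0.0748), and the others by -4.31 and -4.29 (adjusted p = 8.17e-05 and 0.000221). The main value was -5.41 without cDC replicate 1 and -3.45 without cDC replicate 2. With either pDC array left out the 2 minor probe sets no longer entered the test, while the main probe set was still called. In vivo CDP was lower than amplified CDP by -2.39 ± 0.65, at least 1.40-fold (adjusted p = 0.0198). The difference was -1.75 without CDP replicate 1 and -3.03 without CDP replicate 2. This call was lost without CDP replicate 1 or either in vivo array (adjusted p of 0.0675 to 0.110), with no filter (0.127), and with values under 5 raised to 5, where the difference was -0.56 (0.532). The 2.59 between CDP and MPP was not called (adjusted p = 0.111).

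Tlr8 lies beside Tlr7 on the X chromosome in RefSeq and encodes a related receptor. It was at 2.25 on 9 of the 10 arrays and at 2.29 on cDC replicate 2, so its only probe set gives no pattern to set beside that of Tlr7. Tlr9 encodes the receptor for unmethylated CpG DNA. It ranged from 3.05 to 4.41, with 4.29 and 3.63 in pDC, 4.41 and 3.60 in cDC, and 3.21 and 3.05 in in vivo CDP. The CDP arrays measured 3.61 and 3.60 and those of MPP 3.65 and 3.61. The lower pDC array was thus close to CDP and below MPP replicate 1. No order of the groups is read from values this low. All 10 arrays lay under 5 and Tlr9 was not tested on them, although TLR9 is typical of plasmacytoid cells and the 8 plasmacytoid markers averaged 13.06 and 12.76 on the same pDC arrays. A single probe set reads this gene, and what it detects of Tlr9 RNA cannot be checked against another.

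Tlr13 encodes a mouse receptor for bacterial ribosomal RNA. Its probe set 1457753_at measured 3.64 and 3.68 on the MPP arrays, 7.98 and 7.05 on those of CDP, 9.79 and 8.22 for cDC, 3.39 and 5.23 for pDC and 2.53 and 2.61 for in vivo CDP. All amplified CDP and cDC arrays lay above all others, and in vivo CDP lay lowest. Tlr13 was at least 5.73-fold higher in CDP than in MPP, a full log2 difference of 3.86 ± 0.73 (limma adjusted p = 0.0334). That call was lost when any one MPP or CDP array was left out (adjusted p of 0.0843 to 0.181), with no filter (0.245), and with values under 5 raised to 5 (0.0530). Against CDP, Tlr13 was lower in pDC by -3.21 ± 0.73 (adjusted p = 0.0112), and this call was lost without CDP replicate 1 (0.0624), without pDC replicate 1 (-2.29, 0.0522) and without the filter (0.102), and the difference was -4.13 without pDC replicate 2. Between cDC and pDC the difference was 4.69 ± 0.73 (adjusted p = 0.00521), with no call in the fit without the filter (0.0717) and values of 3.77 and 5.61 without pDC replicate 1 and 2, and 3.90 and 5.48 without cDC replicate 1 and 2. In vivo CDP was at least 5.73-fold lower than amplified CDP, a full difference of -4.95 ± 0.67 (adjusted p = 0.00106), and this call held in all 17 alternatives. cDC and CDP differed by 1.49 with an interval of -0.25 to 3.23.

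The replicates of CDP and pDC differed together for several receptors. CDP replicate 1 was above replicate 2 for all 5 main probe sets that exceeded 5 on a CDP array, and pDC replicate 2 was above replicate 1 for 3 of 4, Tlr7 being the exception. Markers of macrophages and monocytes, of which 8 of 10 listed genes were measured, averaged 6.31 and 5.40 on the CDP arrays, 5.46 and 6.84 on those of pDC, 7.18 and 6.94 for cDC, 4.81 and 4.79 for MPP and 4.67 for in vivo CDP. The higher CDP and pDC arrays by this list were thus the ones with more Tlr1, Tlr2 and Tlr13. Tlr4 was also higher on that CDP array (6.80 against 6.38), but lay under 5 on both pDC arrays (2.94 and 3.51). The order of the CDP arrays was not particular to this list. CDP replicate 1 was also above replicate 2 for granulocyte (8.50 and 7.14), conventional (4.65 and 3.51) and plasmacytoid (6.44 and 5.63) markers. Progenitor markers went the other way (8.40 and 8.47). Adgre1, which encodes the macrophage surface protein F4/80, measured 4.32 and 8.86 in pDC, and C1qb, a complement subunit of macrophages, measured 4.30 and 9.45. Cd68 (10.96 and 10.93), Fcgr1 (3.77 and 3.91), Ccr2 (13.57 and 13.81) and Vcan (2.25 on both) moved little between the pDC arrays. On the CDP arrays C1qb was at 2.39 and Ccr2 at 12.76 and 12.70. Adgre1 (7.37 and 5.75), Cd68 (9.62 and 8.64), Fcgr1 (8.55 and 6.92) and Vcan (5.23 and 2.25) were higher on CDP replicate 1. The mean of the macrophage and monocyte list thus moved through partly different genes in pDC and CDP. On the cDC arrays Adgre1 measured 10.02 and 10.12 and Cd68 10.74 and 10.51. Fcgr1 (9.50 and 5.71) and C1qb (7.44 and 9.12) ordered the cDC replicates in opposite ways. C1qa, another complement subunit, was at the lowest value except for 2.26 on pDC replicate 2, and Mertk had group means of at most 2.76. The part of such cells in the receptor values was not tested, beyond the calls without each array given above. Granulocyte markers, 9 of 9 measured, averaged 12.18 to 12.79 in MPP, 10.13 to 11.49 in in vivo CDP, 7.14 to 8.50 in CDP and 3.19 to 3.38 in cDC and pDC, and their part was not tested either. In vivo CDP also differ from amplified CDP in labelling kit (3′ IVT Express against One-Cycle), RNA input (50 ng against 1 µg) and extraction kit (RNeasy Micro against Mini), which cannot be told apart from the origin of the cells.

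Under TGF-β1 Tlr2 was higher at every hour tested and Tlr1 lower at 24 h. Tlr6, the other lipoprotein receptor chain, showed no call, but its values (4.99 to 5.53) lay around the array medians of 5.29 to 5.36. The B cell markers Pax5 and Vpreb1 had means of 5.17 to 5.38 over the same hours. In MPP, CDP, cDC and pDC both were at the lowest value, 2.25. Tlr6 at this level cannot be told from background, so its missing call does not show an unresponsive receptor. The fit covered 8 member probe sets of 7 genes: Tlr1, Tlr2, 2 of Tlr4, Tlr6, Tlr7, Tlr9 and Tlr13. At 4, 8 and 12 h 1 of 8 was called, higher in each case, against 0.278% (0.252% higher and 0.0263% lower), 0.677% (0.560% and 0.117%) and 2.94% (2.07% and 0.872%) of all 26606 probe sets tested. At 24 h 1 was higher and 1 lower, against 14.2% called overall (7.77% higher and 6.39% lower). A moderated F-test over all hours called 2 of 8, against 5.74% overall. The 4 hours share the 0 h arrays, so their differences are not independent. The median difference of the 8 was 0.06, 0.01, -0.28 and -0.21 at 4, 8, 12 and 24 h, beside 0.01, -0.01, 0.01 and -0.01 over all probe sets.

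**Figure D3:**
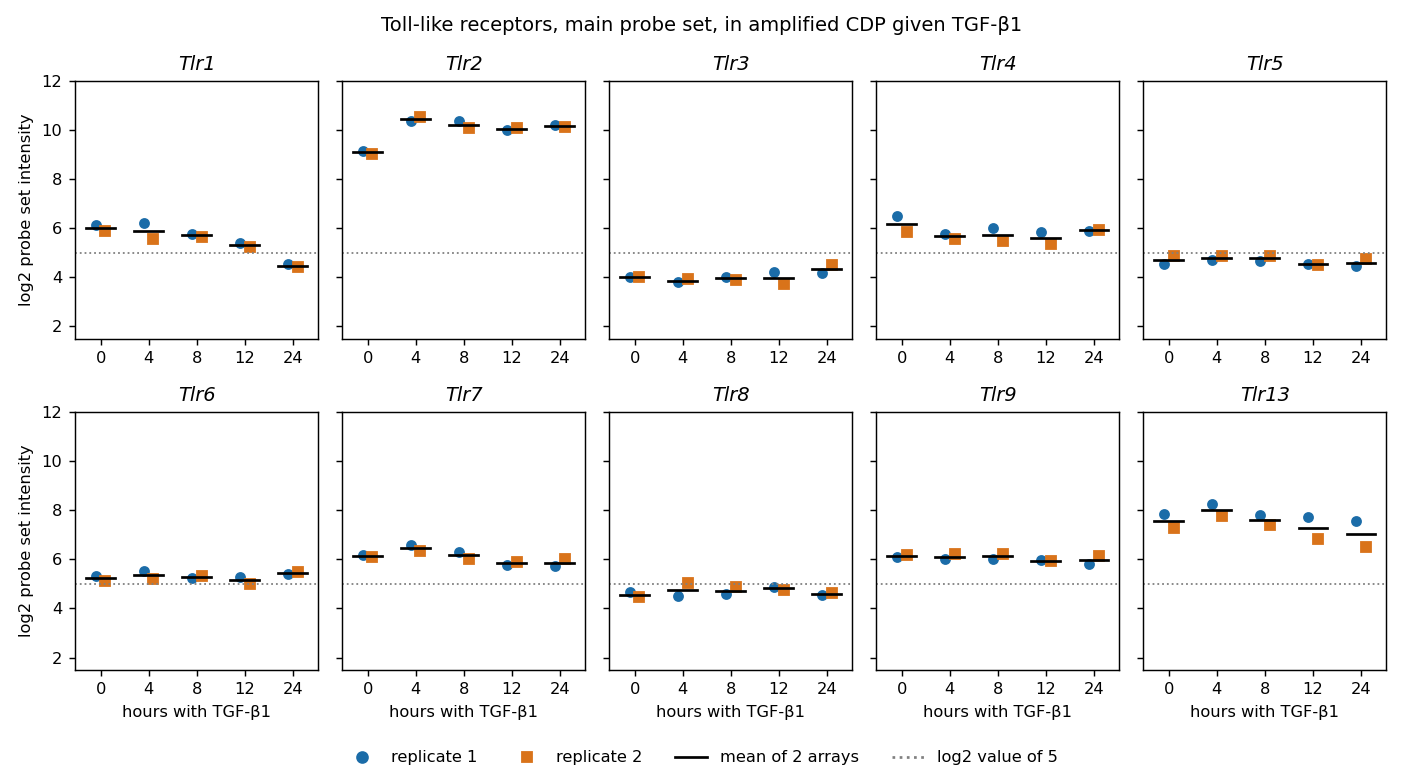
Log2 intensity of the main probe set of each Toll-like receptor (vertical axis) on the 2 arrays at each hour with TGF-β1 (horizontal axis), with the mean as a bar and the level of 5 dotted. Both Tlr2 arrays at every treated hour lie above the 0 h arrays (9.16 and 9.03), and Tlr1 goes from 6.14 and 5.87 at 0 h to 4.53 and 4.40 at 24 h.

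Tlr2 measured 9.16 and 9.03 at 0 h, 10.36 and 10.51 at 4 h, 10.36 and 10.09 at 8 h, 10.01 and 10.09 at 12 h, and 10.19 and 10.12 at 24 h. All 8 treated arrays were above both untreated arrays, and the treated hours overlapped among themselves. Tlr2 was 2.54-fold higher at 4 h, a log2 difference of 1.34 ± 0.16 (limma SE, adjusted p = 0.0265), 2.19-fold at 8 h (1.13 ± 0.16, adjusted p = 0.0271), 1.94-fold at 12 h (0.96 ± 0.16, adjusted p = 0.0240) and 2.09-fold at 24 h (1.07 ± 0.16, adjusted p = 0.00514). The F-test gave an adjusted p of 0.0141. The size held when any array was left out, from 0.89 to 1.42 over the 4 hours, but the calls did not. At 4 h the call was lost in all but 1 of the fits without a single array, the exception being that without replicate 2 at 4 h. At 8 h it was lost when either array of 0, 8, 12 or 24 h was left out, and at 12 h when either array of 0 or 12 h was left out. At 24 h it was lost only without replicate 2 of 0 h (adjusted p = 0.0609). Without the 3 arrays of low 5′ signal, Tlr2 was called at 8, 12 and 24 h and not at 4 h.

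Tlr1 measured 6.14 and 5.87 at 0 h, 6.23 and 5.55 at 4 h, 5.75 and 5.66 at 8 h, 5.38 and 5.22 at 12 h, and 4.53 and 4.40 at 24 h. The 4 h arrays overlapped those of 0 and 8 h, the 8 h arrays lay below those of 0 h, and those of 12 h and then 24 h lay below all earlier ones. At 24 h Tlr1 was at least 2.01-fold lower than at 0 h, a full log2 difference of -1.54 ± 0.24 (limma adjusted p = 0.00518). That call was lost without replicate 1 of 0 h (adjusted p = 0.0550). The -0.70 at 12 h had an adjusted p of 0.193, and the F-test gave 0.0306. On these arrays 5 was no floor and lay under the medians of 5.29 to 5.36, so the bound of 2.01 rests on a set level. Tlr1 went from above these medians at 0 h to below them at 24 h. In the other series Tlr1 was instead higher in cDC than in CDP (3.57), on arrays of another scale, and the 2 directions were not tested against each other. Markers of conventional dendritic cells averaged 6.31 to 6.52 at 0 h and 8.21 to 8.45 at 24 h. Macrophage and monocyte markers averaged 6.55 to 6.57 at 0 h and 5.87 to 5.95 at 24 h. Granulocyte markers also fell, from 7.69 to 7.77 at 0 h to 6.75 to 6.77 at 24 h. Plasmacytoid markers (7.36 to 7.61, then 7.80 to 8.46) and progenitor markers (9.98 to 10.34, then 10.59 to 10.63) were higher at 24 h. The part of any of these cells in the Tlr1 value was not tested.

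The other receptors showed no call under TGF-β1 in limma, and at an unadjusted p under 0.05 the only addition to these calls was Tlr1 at 12 h. Tlr13 measured 7.83 and 7.27 at 0 h, 8.28 and 7.78 at 4 h, 7.81 and 7.39 at 8 h, 7.72 and 6.83 at 12 h, and 7.57 and 6.51 at 24 h. Replicate 1 was the higher one at every hour, and the difference at 24 h was -0.52 with an interval of -1.52 to 0.49. The main probe set of Tlr4 measured 6.49 and 5.86 at 0 h and 5.90 and 5.93 at 24 h, a difference of -0.26 with an interval of -0.91 to 0.39, and its second probe set reached -0.95 at 8 h (adjusted p = 0.568). Tlr7 measured 6.17 and 6.09 at 0 h, 6.57 and 6.34 at 4 h, and 5.72 and 6.01 at 24 h, with an interval of -0.69 to 0.16 for the 24 h difference. All 3 intervals include 0, and their lower ends reach -0.69 to -1.52. Tlr6 lay between 4.99 and 5.53, around the array medians, and Tlr9 between 5.83 and 6.22 on the 10 arrays. Their largest differences from 0 h were 0.20 and -0.19. Tlr3 (3.73 to 4.51 by the main probe set) and Tlr5 (4.45 to 4.88) stayed under 5 and Tlr8 (4.45 to 5.05) exceeded it on 1 array, so they were not tested. Tlr3 therefore stayed under 5 through 24 h of TGF-β1. On both of its probe sets the 24 h arrays lay above the 0 h arrays. The differences were 0.34 for the main probe set and 0.46 for the second, and they were not tested. The Tlr3 level of cDC is on another scale and cannot be set beside these values.

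**Figure D4:**
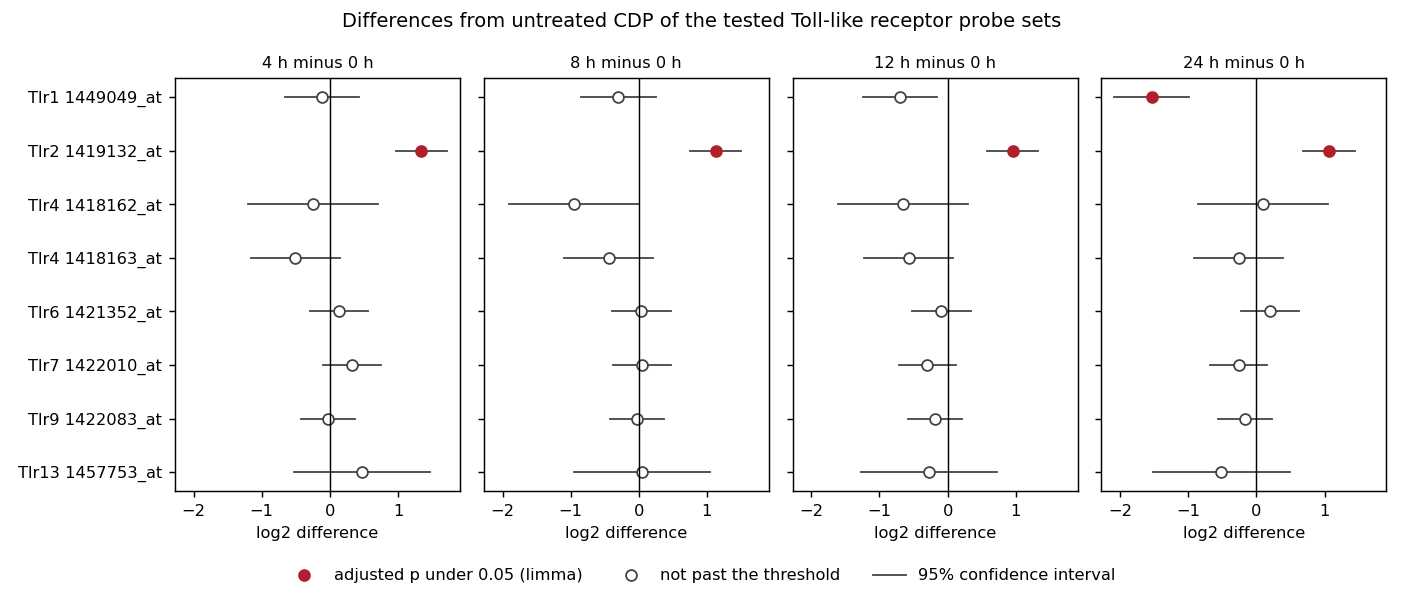
Log2 difference from 0 h (horizontal axis) of the 8 tested Toll-like receptor probe sets (rows) after 4, 8, 12 and 24 h with TGF-β1 (panels), with the 95% confidence interval and filled points where the limma adjusted p was under 0.05. Tlr2 is filled in all 4 panels (1.34, 1.13, 0.96 and 1.07), and Tlr1 is filled only at 24 h (-1.54).

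Partner genes of the receptors were taken from a list of 40 genes of co-receptors, chaperones, adaptors and signalling proteins, of which 36 had a probe set and 35 were tested in each fit, each by its main probe set. Here too, genes that passed the low-value filter only through the group where they are high had to differ. The counts of partner genes therefore describe and do not support. From MPP to CDP 5 were higher and 3 lower, against 5.91% of main probe sets called over all genes (3.19% higher and 2.72% lower). Ly86, which encodes the MD-1 protein of the RP105 complex, was higher by 5.63 ± 0.29 (limma adjusted p = 0.000281), and Lgmn, which encodes a protease that cleaves endosomal receptors, was at least 22.8-fold higher. Cd180, encoding RP105 itself, was at least 1.19-fold higher, and Irf5, a transcription factor of the MyD88 pathway, was higher by 2.02. Ikbke, a kinase of the TRIF pathway, and Irak3, an inhibitory member of the IRAK kinase family, were lower by -2.54 and -1.97. The second probe sets of Irf5 and Irak3 had no call here. None of Unc93b1, Hsp90b1, Cnpy3, Myd88, Ticam1, Cd14 and Ly96 was called, with differences of 0.03 to 0.91.

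From CDP to cDC 15 partner genes were higher and 5 lower, against 44.3% called over all genes (17.2% and 27.1%). From CDP to pDC 16 were higher and 6 lower, against 50.4% (20.4% and 30.0%). Unc93b1, whose product carries nucleic acid receptors to endosomes, measured 7.12 ± 0.08 for MPP, 7.93 ± 0.12 for CDP, 9.42 ± 0.35 for cDC, 10.25 ± 0.07 for pDC and 10.05 ± 0.17 for in vivo CDP (SD, n = 2). It was higher than in CDP by 1.49 ± 0.22 in cDC and by 2.32 ± 0.22 in pDC (limma adjusted p = 0.00287 and 0.000380), and was lower in cDC than in pDC by -0.83 (0.0380). Cnpy3, a folding helper of Toll-like receptors, was higher in both (0.90 and 1.13), and Hsp90b1, the chaperone gp96, was higher in pDC (1.09, adjusted p = 0.00375) with 0.10 in cDC. Cd14, the lipopolysaccharide co-receptor, was lower than in CDP by -1.96 in cDC and by -3.14 in pDC (adjusted p = 0.0169 and 0.00213), while Ly96, the TLR4 co-receptor MD-2, showed no call (-0.70 and -0.18). Lbp, the lipopolysaccharide carrier, was at least 4.06-fold lower in both, with no call on its second probe set. Irf7, which drives interferon genes downstream of TLR7 and TLR9, was at least 4.40-fold higher in cDC and 15.9-fold in pDC, with wide replicate spreads of 2.77 and 1.26 (SD, n = 2). Cd36, a scavenger receptor that hands ligands to TLR2, was at least 6.11-fold higher in cDC and 1.83-fold in pDC by its main probe set, while its other 2 probe sets were not tested. In pDC, Irak3 was at least 2.40-fold lower than in CDP (-3.63), and Tlr12, a further Toll-like receptor outside the member list that senses profilin, was higher by 3.49 (at least 1.69-fold) on 1 probe set, while its second probe set measured 2.57 and 2.40. In cDC, Tnfaip3, which encodes a brake on signalling, was higher by 2.27, the kinase gene Irak2 was at least 2.72-fold higher, and Ticam1, encoding TRIF, at least 1.48-fold (adjusted p = 0.00405). Myd88 showed no call in either comparison, with differences of 0.10 and 0.12.

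Between cDC and pDC 4 partner genes were higher in cDC and 5 in pDC, against 22.6% called over all genes (11.4% and 11.2%). Irak3 was at least 2.17-fold higher in cDC, a full difference of 3.49 ± 0.28 (limma adjusted p = 0.000398), Tirap, the bridging adaptor of TLR2 and TLR4, by 1.88, and Nfkbia, the NF-kappaB inhibitor, by 1.44. The second probe set of Irak3 had no call here. Tlr12 was at least 1.69-fold lower in cDC (-3.11) on the first of its probe sets. Among the cell groups this probe set exceeded 5 only in pDC, so it had to differ once tested. Cd180 and Hsp90b1 were lower in cDC by -1.16 and -0.99. Ticam1, Cd14, Ly96, Cnpy3 and Myd88 showed no call.

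Against amplified CDP, in vivo CDP had 15 partner genes higher and 7 lower, with 44.5% called over all genes (26.3% higher and 18.3% lower). Unc93b1 was higher by 2.12 ± 0.21 (limma adjusted p = 0.000304), Cnpy3 by 2.00, Ly86 by 2.00, Tollip by 1.84 and Hsp90b1 by 0.54, while Irak2 was at least 1.88-fold higher and Ticam1 at least 1.18-fold. The second probe sets of Tollip and Hsp90b1 had no call here. Cd14 was lower by -3.70 ± 0.50 (adjusted p = 0.00107) and Myd88 by -0.90 (0.0291), and the -1.09 of Ly96 was not called (0.0660). Tlr4 and Cd14 were thus both lower in in vivo CDP. For Irak1 and Map3k7 other probe sets were called in the opposite direction, so no direction is given for them.

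**Figure D5:**
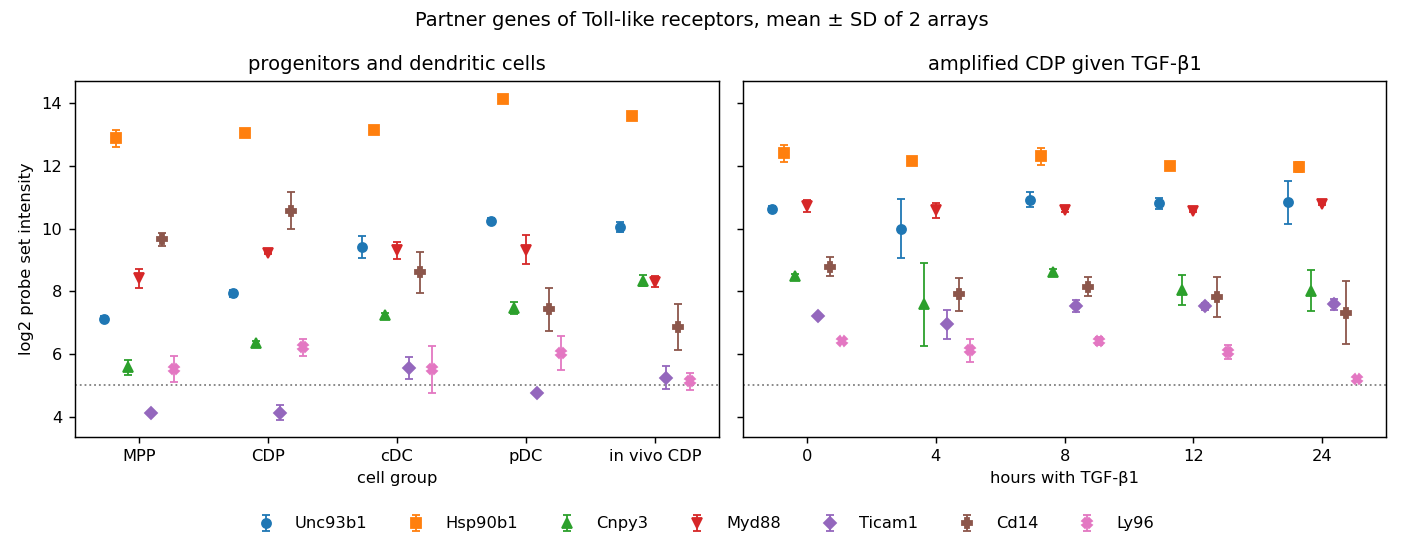
Log2 intensity (vertical axis, mean and SD of 2 arrays) of 7 partner genes in the 5 cell groups (left) and at each hour with TGF-β1 (right), with the level of 5 dotted. Unc93b1 goes from 7.93 in CDP to 10.25 in pDC, Cd14 goes from 10.57 to 7.42, and Myd88 stays between 8.31 and 9.33 in the cell groups.

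Under TGF-β1 none of the 35 partner genes was called in limma at 4, 8 or 12 h, with 5, 4 and 9 at an unadjusted p under 0.05 and 0.427% (0.387% higher and 0.0395% lower), 0.932% (0.806% and 0.126%) and 3.96% (2.85% and 1.11%) called over all genes. At 24 h 7 were higher and 3 lower, against 17.0% overall (9.61% higher and 7.37% lower). Lbp was lower by -1.91 ± 0.43 (adjusted p = 0.0244) and Ly96 by -1.20 ± 0.21 (0.00915). Irak2, Tirap, Nfkbia and Ly86 were higher by 1.35, 1.27, 1.27 and 1.20. The second probe sets of Lbp and Tirap had no call. Of the 5 probe sets of Nfkbia, the main one and 1 other were called higher. Cd14 measured 8.79 ± 0.31 at 0 h and 7.31 ± 1.01 at 24 h (SD, n = 2), a difference of -1.48 that was not called (adjusted p = 0.0991). Unc93b1, Hsp90b1, Cnpy3, Myd88 and Ticam1 showed no call at any hour.

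For each receptor whose group means spanned at least 2 log2 units, the genes with the most similar profile over the 10 arrays were sought among 3215 genes, by the root mean square difference of log2 values after each gene was centred on its own mean. The closest to Tlr3 was Hepacam2 (0.52), followed by Shtn1 and Klrb1b (both 0.62), with group means of 8.88 to 10.47 in cDC. For Tlr7 these were Pltp (0.57), Rilpl1 (0.59) and Gm5547 (0.84), at 10.02 to 12.96 in pDC. Rab7b (0.63) was closest to Tlr1, followed by Ndnf and St18 (both 0.86). Wfdc17 (0.39) was closest to Tlr13, then Sirpb1a (0.60) and Dab2 (0.74). AB124611 and Gcnt1 (both 0.42) and Smagp (0.47) were closest to Tlr2, and Dnajc12 (0.66), Gyg and Gsdme (both 0.69) to Tlr4. Wfdc17, like Tlr13, was low in in vivo CDP (6.25) and MPP (7.58) and high in CDP (11.31) and cDC (12.07). All these profiles come from the same arrays, and no other receptor was among the 3 genes nearest to any of the 6.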

How the data were processed

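Total RNA of 20 mouse samples was measured on Affymetrix 3′ expression arrays. The authors deposited log2 values from GCRMA, which corrects background and normalizes, per the submitters' processing notes. Its version and which arrays it was run on together were not given in the sources used here. Per the labels' protocols, the MPP, CDP, cDC and pDC arrays used a One-Cycle kit and 1 µg of RNA, and the others a 3′ IVT Express kit with 250 ng (TGF-β1) or 50 ng (in vivo CDP). Neither the TGF-β1 dose nor the number of mice was given in the sources used here.

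Among 45101 probe sets 64 were array controls, 34945 had 1 gene symbol, 932 several and 9160 were not named. With R 4.3.3, limma 3.58.1 (eBayes without trend or robust) was fitted without further scaling to the 8 one-cycle arrays, to these with the 2 in vivo arrays (for in vivo CDP only), and to the 10 TGF-β1 arrays. Adjusted p is two-sided, by Benjamini-Hochberg over all probe sets of a fit above 5 on at least 2 arrays. The calculation was tested on simulated data. Alternatives were no filter, a filter at 6, median centring, quantile normalization, trend and robust on, values under 5 raised to 5, the replicate number as a block, the in vivo arrays added, the 3 arrays of low 5′ signal left out, and each array left out. Named were all member probe sets, the 6 largest called partner genes per comparison plus 7 fixed ones, and the 3 genes nearest to each receptor. Members and lists were chosen with earlier results of these data known.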

Additional observations from a re-analysis of the deposited data

How the results depend on the processing

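No difference of a receptor probe set that was called reversed its sign under an alternative. In limma, 0 receptor probe sets were called for CDP against MPP without the low-value filter, with 5 at an unadjusted p under 0.05. At 4 h of TGF-β1 0 were called without the 3 arrays of low 5′ signal, with 2 at an unadjusted p under 0.05, and the F-test over all hours called 1 with values under 5 raised to 5. Leaving out one array gave 0 to 3 for CDP against MPP, 1 to 3 for cDC against CDP, 5 to 8 for pDC against CDP, 8 to 10 for cDC against pDC, 4 to 5 for in vivo CDP, 0 to 1 at 4, 8 and 12 h, 1 to 2 at 24 h, and 0 to 2 over all hours. A lone array is there assumed to vary like the other groups, and fewer arrays leave fewer probe sets past the filter.

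The number of all probe sets called moved by more than 1.5 times without the filter, from 861 to 445 for CDP against MPP, from 7041 to 4184 for cDC against CDP and from 3647 to 2359 for cDC against pDC. Without the 3 arrays of low 5′ signal it went from 74 to 40 at 4 h, from 180 to 764 at 8 h and from 783 to 1211 at 12 h. Leaving out one array gave 205 to 720 for CDP against MPP (lowest without MPP replicate 1), 4256 to 6458 for cDC against CDP (cDC replicate 2), 5808 to 8130 for pDC against CDP (pDC replicate 2), 1746 to 3548 for cDC against pDC (pDC replicate 1) and 4580 to 7562 for in vivo CDP, from 7716 (in vivo CDP replicate 2). It gave 3 to 1537 at 4 h, 20 to 318 at 8 h, 121 to 1277 at 12 h, 1063 to 5194 at 24 h and 314 to 3756 over all hours. The lowest of these came without 0 h replicate 2, or at 8 h without 8 h replicate 2. The highest came without 4 h replicate 2 at 4 h and over all hours, and without 4 h replicate 1 at the other hours.

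The labels do not say that a replicate number marks a shared batch, and with only 2 numbers pairing cannot be shown. Deviations from the group means correlated between groups at 0.02 to 0.59 in the one-cycle arrays and 0.15 to 0.83 in the TGF-β1 arrays. The highest of the latter were between 4 and 12 h (0.68), 4 and 24 h (0.74) and 12 and 24 h (0.83). These hours hold the 3 arrays of low 5′ signal, all replicate 1, and the part of RNA quality in these correlations was not tested. With the number as a block, the calls of receptor probe sets were 3, 3, 8, 10 and 5 in the 5 cell comparisons and 1, 1, 1 and 2 at the 4 hours. The one addition was Tlr7 in CDP against MPP (adjusted p = 0.0183). The block moved the calls of all probe sets to 174, 577, 1948 and 6164 at 4, 8, 12 and 24 h and to 3469 over all hours, from 1526. The number of arrays limits the precision throughout.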
